A study of Nothobranchius furzeri with 24 samples.

Results

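In whole brains of turquoise killifish (Nothobranchius furzeri) caught in the wild, 100 genes were chosen by the height of their median expression at 73 days post hatch (dph) over both 39 and 108 dph. Expression is given as RPM, the reads of a gene scaled so that every library has the same total over all genes. For each age the median of log2(RPM + 0.5) was taken over 8 fish. Of 26739 genes in the table, 16954 had a median of at least 1 RPM at each age. In 1742 of these, or 10.3%, the median at 73 dph was above the medians of 39 and 108 dph in all fish, in the 4 females alone and in the 4 males alone. These genes were ranked by the smaller of the differences between 73 and 39 dph and between 73 and 108 dph, and the first 100 are described. The same values that chose the genes are given below as a description, without a test. The mirrored rule, with 73 dph lowest in both sexes, was met by 1430 genes, or 8.43%, and 194 of these had a smaller gap of at least that of the last of the 100 genes.

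The brains came from the population A41 (strain label MZM_A41), an annual fish of temporary ponds, with 4 females and 4 males at each of 39, 73 and 108 dph and no treatment. Each of the 24 poly(A) libraries was made from 1 fish caught with nets in a natural pond and dissected in the early morning. The fish were killed at each age, so no fish was followed over time, and age cannot be told apart from the time of collection within the season. In whole brains, fewer cells of a type and less RNA per cell cannot be told apart. Total counts were 14219725 to 19346170 in 22 libraries, and 4595506 and 10019750 in 2 libraries of 39 dph (female replicate 4 and male replicate 4). The summed level of 11 genes that mark neurons was 3268 to 4269 RPM over all fish, and that of 5 genes of astroglia and radial glia was 4605 to 8934 RPM. Genes that mark skeletal muscle summed to at most 102 RPM, and those of skin and epithelium to at most 81.4 RPM. None of the listed symbols of microglia or of lymphocytes and neutrophils was matched to a gene.

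The 100 genes were chosen for a shared time course, and whether they share a pathway was not tested. JARID2, which stands out among them, encodes a protein known in mammals as an accessory subunit of Polycomb repressive complex 2, the enzyme complex that methylates histone H3 on lysine 27 and keeps developmental genes silent. EGR1 encodes a transcription factor that is induced within minutes by neuronal activity and is widely used as a marker of active neurons. ABCB4 and FABP4 belong to lipid handling, ROBO3 to axon guidance and HEY1 to Notch signalling, and 68 of the 100 genes carried no name in the study's gene lists used here. Names were found for 32 of the 100 genes and for 42.1% of the 16954 genes. Roles given below are those known from mammals.

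Most of the gaps were small. The smaller gap was 0.32 to 1.42 on the log2 scale, with a median of 0.42. It was under 0.5 in 70 genes and at least 1 in 3 genes, namely Nfu_g_1_016232, Nfu_g_1_013880 and S100A10. The median difference was 0.50 between 73 and 39 dph and 0.47 between 73 and 108 dph. In females alone these medians were 0.50 and 0.46, and in males alone 0.44 and 0.46. All 4 gaps, those to both ages in both sexes, were above 0.3 in 37 genes. The level at 108 dph lay within 0.2 log2 of that at 39 dph in 70 genes, above it by more in 22 genes and below it by more in 8 genes. The median difference of 108 and 39 dph was 0.02 over the 100 genes and 0.01 over the 16954 genes. It was 0.01 to 0.06 with 1 fish left out, the lowest without 108 dph female replicate 4 and the highest without 39 dph male replicate 1, and 0.0041 with TMM scaling.

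The genes were expressed at a lower level and varied more among fish than most. The rule did not scale the gap by the spread among fish, so it favours genes that vary widely. The values below describe what the rule picked. Their median RPM at 73 dph ranged from 1.56 in Nfu_g_1_009158 to 1020 in JARID2, with a median of 9.56, against a median of 22.3 over the 16954 genes. The level at 73 dph was under 5 RPM in 30 of the 100 genes and in 18.4% of the 16954 genes. The standard deviation among fish of the same age had a median of 0.38 log2 over the 100 genes and 0.20 over the 16954 genes. It was 0.88 over the 20 genes with the largest gaps and 0.35 over the other 80. The smaller gap exceeded this standard deviation in 64 of the 100 genes. The annotated length had a median of 2634 bases over the 100 genes and 2830 bases over the 16954 genes.

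To show the level of the genes in each fish, each gene was scaled to a z-score over the 24 fish and the 100 scores were averaged. At 39 dph this mean was -0.38 ± 0.19 (SD, n = 8), and it was 0.64 ± 0.14 at 73 dph and -0.26 ± 0.21 at 108 dph. The 8 fish of 73 dph lay between 0.38 in male replicate 3 and 0.80 in female replicate 1, above the highest fish of 39 dph at -0.03 and the highest of 108 dph at 0.08. The separation follows from the choice of the genes. Within 73 dph, male replicate 4 was the highest fish in 27 of the 100 genes, while female replicate 4 was the highest in 6. The same was not counted over the 16954 genes, and some of the 100 genes moved together among fish. These counts are therefore a description.

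**Figure D1:**
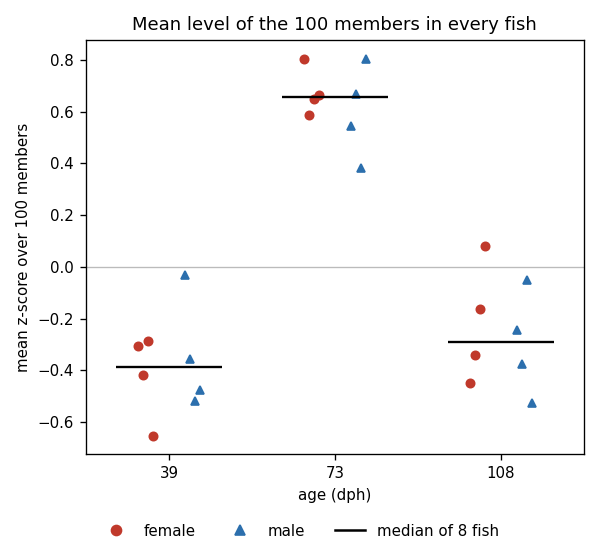
Mean z-score over the 100 genes (vertical axis) in each of the 24 fish by age in dph (horizontal axis). Circles are females, triangles are males and lines are medians of 8 fish. All fish of 73 dph lie between 0.38 and 0.80, and no fish of another age exceeds 0.08, as the choice of the genes fixes.

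Only JARID2 and KLHL29 had all 8 fish of 73 dph above every fish of both other ages. No other gene of the 16954 did so, a share of 0.0118%. JARID2 (Nfu_g_1_004090, annotated as JARID2B) was at 156 to 249 RPM at 39 dph with a median of 183. At 73 dph it was at 795 to 1166 RPM with a median of 1020. At 108 dph it was at 560 to 755 RPM with a median of 604. The 3 ages did not overlap, and the level at 108 dph stayed well above that at 39 dph: the median was 5.56-fold that of 39 dph at 73 dph and 3.30-fold at 108 dph. The log2 difference estimated by edgeR was 2.34 ± 0.11 (SE) from 39 to 73 dph and -0.70 ± 0.11 from 73 to 108 dph. The choice of the genes fixed the same direction in both sexes. The difference of log2 medians between 73 and 39 dph was 2.28 in females and 2.57 in males. That between 73 and 108 dph was 0.84 and 0.63.

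KLHL29 (Nfu_g_1_012428), a kelch-like family member, varied less among fish of 1 age than any other of the 100 genes, with a standard deviation of 0.11 log2. Its level was 40.7 to 59.7 RPM at 39 dph with a median of 49.6. It was 62.0 to 72.7 RPM at 73 dph with a median of 68.2, and 47.3 to 55.6 RPM at 108 dph with a median of 51.4. The range at 108 dph lay within that at 39 dph, and the fish of 73 dph stood above both. The edgeR estimate was 0.42 ± 0.06 from 39 to 73 dph and -0.41 ± 0.06 from 73 to 108 dph.

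The fish of 73 dph lay above all fish of 39 dph in 5 of the 100 genes, with JARID2, KLHL29, ROBO3 and Nfu_g_1_019430 among them, against 3.12% of the 16954 genes. They lay above all fish of 108 dph in 4 genes, JARID2, KLHL29, GK2 and SLC25A40, against 0.619%. In 27 of the 100 genes no fish of 73 dph exceeded all fish of the other ages. A model across all 19358 genes that passed the count filter (edgeR's quasi-likelihood test of 73 dph against the mean of 39 and 108 dph, with sex as a term) called 203 genes higher at 73 dph, 1.05%, and 154 lower, 0.796%, at a false discovery rate (FDR) under 0.05. Of the 100 genes 20 were called higher, a contrast that the choice had used. Among the 20 genes with the largest gaps 3 were called, Nfu_g_1_019430, JARID2 and MAPKBP1. The called genes had a median standard deviation among fish of 0.25 log2 and the other 80 of 0.42. The test weighs a difference against the spread among fish, so a lower spread of called genes follows in part from the test.

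**Figure D2:**
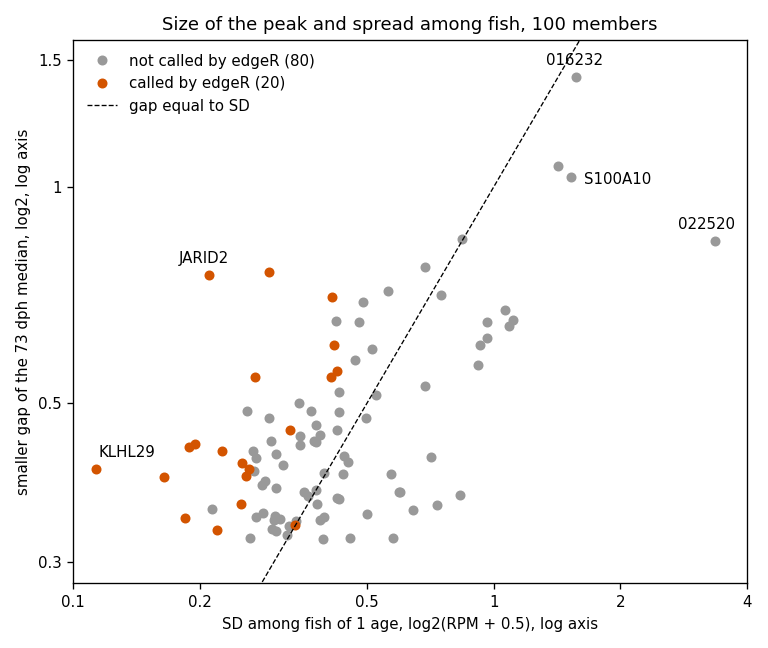
Smaller gap of the 73 dph median over the other ages (vertical axis, log2 of RPM + 0.5) against the standard deviation among fish of 1 age (horizontal axis, same scale), both on log axes, for the 100 genes. Orange points are the 20 genes called by edgeR, grey points the other 80, and the dashed line marks a gap equal to the standard deviation. The 3 gaps above 1 belong to genes whose spread is larger than the gap, and KLHL29 at 0.11 has the smallest spread.

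Several of the genes with the largest gaps were at a high level in some fish and a low level in others, at every age. S100A10 (Nfu_g_1_001324), which encodes a calcium-binding family protein known as a partner of annexin A2, had no fish between 16.7 and 58.9 RPM. At 39 dph 1 of the 8 fish was above this gap, while 4 of 8 were above it at 73 dph and 3 of 8 at 108 dph. The low fish of all ages lay between 3.05 and 16.7 RPM and the high fish between 58.9 and 148 RPM. The median at 73 dph, 43.8 RPM, fell between these levels and was the level of no fish. Nfu_g_1_016232, the gene of the largest gap, showed the same counts: no fish lay between 2.41 and 9.39 RPM, and 1, 4 and 3 fish were above at 39, 73 and 108 dph. The fish were in part others, since 4 fish were high in both genes out of 8 high in each.

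Nfu_g_1_022520 had the widest empty range of the 100 genes, from 10.2 to 66.0 RPM, with 3 of 8 fish above it at 39 dph, 5 at 73 dph and 4 at 108 dph. Its difference of log2 medians between 73 and 39 dph, 4.23, was the largest of the 100 genes. In RPM the median was 5.13 at 39 dph, 77.1 at 73 dph and 92.4 at 108 dph, so that on the linear scale 108 dph was the highest age. It was the only 1 of the 100 genes for which this held. In Nfu_g_1_013880 the empty range ran from 0.847 to 2.55 RPM, and 6, 7 and 6 fish were above it. In Nfu_g_1_022505 it ran from 6.77 to 20.1 RPM, with 8, 6 and 7 fish above it. A gap of more than 1 log2 unit among the sorted 24 fish, with at least 3 fish on each side, was present in 6 of the 100 genes and in 0.407% of the 16954 genes. The sixth gene was JARID2, whose empty range separated all fish of 39 dph from all others.

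**Figure D3:**
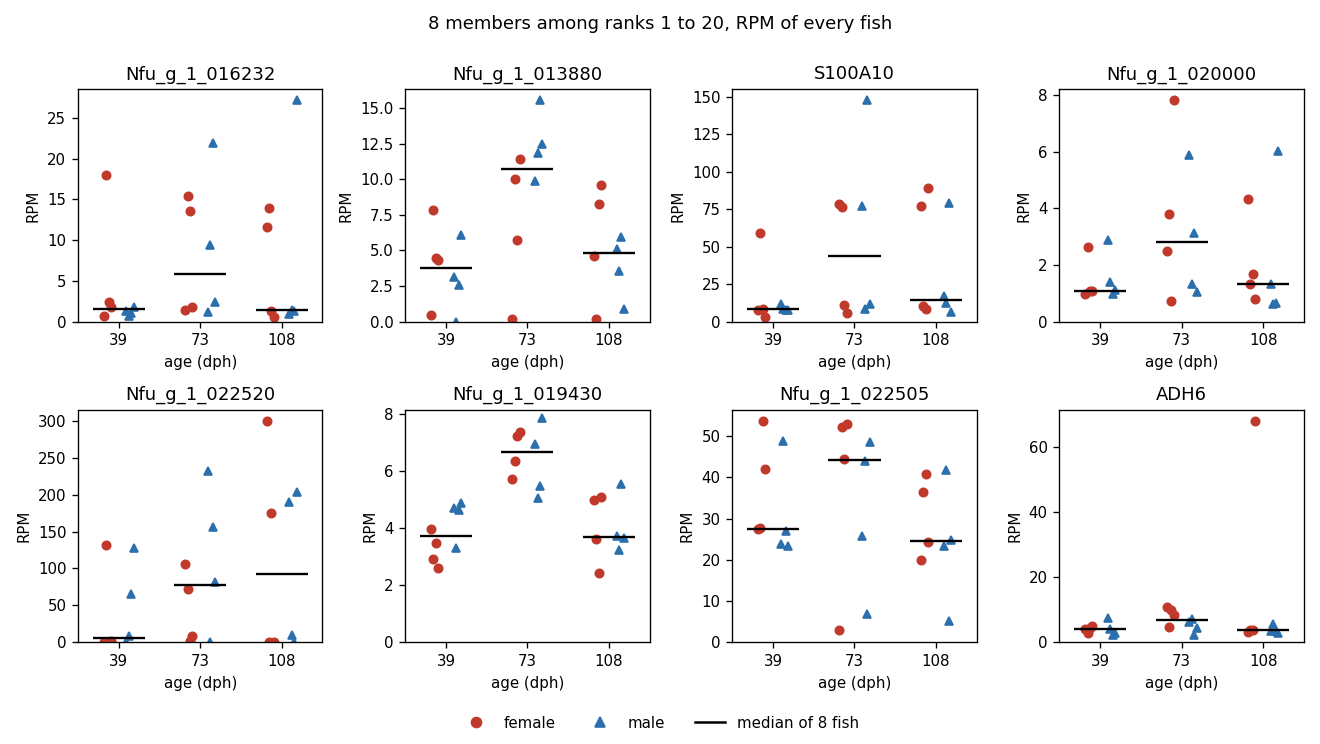
RPM (vertical axes, starting at 0) of 8 of the 20 genes with the largest gaps in each fish, by age in dph (horizontal axes). Circles are females, triangles are males and lines are medians of 8 fish. In S100A10 and Nfu_g_1_016232 the fish of each age fall into a low and a high level. In Nfu_g_1_022520 a fish of each age also lies between, at 8.52 to 10.2 RPM. In Nfu_g_1_019430 the fish form 1 cloud per age, and in ADH6 a single fish of 108 dph lies at 67.9 RPM.

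A range of more than 10-fold among the 8 fish of any age (RPM + 0.5) was found in 11 of the 100 genes, 10 of them among the 20 genes with the largest gaps, and in 1.11% of the 16954 genes. The rule favours a wide spread, so this share and that of genes with an empty range are a description. The mean RPM, which gives high fish more weight than the median does, was highest at 73 dph in 95 of the 100 genes and in 17 of the 20 with the largest gaps. An exception was ADH6 (Nfu_g_1_012132), an alcohol dehydrogenase, at medians of 4.07, 6.68 and 3.68 RPM at the 3 ages. One female of 108 dph was at 67.9 RPM, and the other fish of that age were at 5.57 RPM or less. The edgeR estimate of 73 dph against the mean of the other ages was -0.01 ± 0.48 for this gene, near 0.

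Of the other genes with large gaps, Nfu_g_1_019430 was at 2.61 to 4.89 RPM at 39 dph, 5.05 to 7.86 at 73 dph and 2.43 to 5.53 at 108 dph. Its fish of 73 dph were all above those of 39 dph, and 6 of the 8 were above every other fish. HMCN1 (Nfu_g_1_002432), a hemicentin of the extracellular matrix, was at 7.66 to 29.3 RPM with a median of 17.7 at 39 dph, 16.6 to 42.4 with 35.1 at 73 dph, and 13.8 to 47.3 with 21.2 at 108 dph. The ages overlapped, and the highest fish of all was 1 of 108 dph. MAPKBP1 (Nfu_g_1_012397), a scaffold protein of JNK signalling, was at 8.48 to 13.0 RPM, 11.4 to 29.5 and 6.36 to 19.7, with medians of 12.03, 22.1 and 13.4. Here 5 of the 8 fish of 73 dph lay above all others.

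The remaining 10 of the 20 genes with the largest gaps had no name. Nfu_g_1_020000 was at 0.964 to 2.89 RPM at 39 dph, 0.719 to 7.85 at 73 dph and 0.613 to 6.04 at 108 dph, with medians of 1.09, 2.81 and 1.33. Nfu_g_1_005373 had medians of 1.13, 2.19 and 1.02 RPM and Nfu_g_1_019351 medians of 1.21, 2.79 and 1.55 RPM. In Nfu_g_1_019351 4 of the 8 fish of 73 dph lay above all others, and in the other pair 1 did. Nfu_g_1_014187 had medians of 2.58, 4.65 and 2.78 RPM, Nfu_g_1_012089 medians of 2.97, 4.89 and 2.44 RPM and Nfu_g_1_014871 medians of 2.57, 4.97 and 3.10 RPM. In Nfu_g_1_014187 and Nfu_g_1_012089 the highest fish of all was 1 of 108 dph, at 12.9 and 10.7 RPM. Nfu_g_1_018704 had medians of 14.04, 25.5 and 15.5 RPM, and Nfu_g_1_004636 medians of 21.8, 35.3 and 22.3 RPM, each with 2 fish of 73 dph above all others. Nfu_g_1_009150 had medians of 8.51, 13.7 and 7.34 RPM, with 4 such fish. Nfu_g_1_013565 had medians of 5.91, 9.92 and 6.13 RPM, and its highest fish of 73 dph, at 27.1 RPM, was 2.14 times the next.

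Genes of receptors, cell adhesion, matrix, signalling and pigment are given together here. ROBO3 (Nfu_g_1_017085), a receptor that steers axons across the midline, had medians of 8.75, 15.2 and 10.3 RPM at the 3 ages. Its lowest fish of 73 dph, at 11.6 RPM, was above the highest of 39 dph at 11.1 RPM, while at 108 dph the fish reached 16.7 RPM. CDH11 (Nfu_g_1_005617, annotated as a copy of CDH24), a cadherin that joins cells, had medians of 25.1, 35.3 and 24.7 RPM, and its fish of 73 dph ranged from 24.2 to 45.4 RPM and overlapped both other ages. COL15A1 (Nfu_g_1_013310), a collagen of basement membranes, had medians of 1.73, 2.79 and 1.83 RPM. At these levels 4 of the 8 fish of 73 dph lay above all others. GNG8 (Nfu_g_1_005067), a G protein gamma subunit, had medians of 6.51, 9.93 and 6.95 RPM. PMEL (Nfu_g_1_021252), the fibril protein of pigment granules, had medians of 9.78, 17.3 and 11.1 RPM, and 4 of its 8 fish of 73 dph were above all others.

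Genes of transport across membranes formed another group. SLC6A13 (Nfu_g_1_003547), a GABA transporter known in mouse brain from the meninges, was at 24.1 to 30.0 RPM at 39 dph with a median of 27.2. At 73 dph it was at 28.6 to 43.7 with a median of 36.8, and at 108 dph at 20.8 to 32.7 with a median of 26.6. The levels at 39 and 108 dph were alike, and 5 of 8 fish of 73 dph lay above all others. Of 6 listed symbols that mark meninges and fibroblasts only 2 were matched, to 3 tested genes. Their summed RPM was 67.2 to 863 at 39 dph with a median of 278, 61.4 to 117 at 73 dph with 84.3, and 46.8 to 115 at 108 dph with 78.8. So few genes do not measure the amount of meninges, and its part in the level of SLC6A13 was not tested. SLC25A40 (Nfu_g_1_001310), a carrier of the inner mitochondrial membrane, had medians of 19.0, 25.5 and 19.3 RPM, and its fish of 73 dph, at 21.6 RPM or more, were above all of 108 dph. SLC7A10 (Nfu_g_1_016602), an exchanger of small neutral amino acids, had medians of 2.47, 3.39 and 2.11 RPM. SLC24A3 (Nfu_g_1_005450), a sodium, calcium and potassium exchanger, had medians of 32.2, 40.5 and 30.2 RPM, and its highest fish was 1 of 108 dph at 61.9 RPM. ABCC12 (Nfu_g_1_022066), an ABC transporter, had medians of 24.0, 33.2 and 23.8 RPM, and its highest fish, at 47.2 RPM, was also 1 of 108 dph.

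Genes of lipid handling were the next group. ABCB4 (Nfu_g_1_001329), a phospholipid exporter, had medians of 31.1, 46.4 and 36.6 RPM. FABP4 (Nfu_g_1_009099), a fatty acid binding protein, had medians of 98.2, 124 and 85.2 RPM, and 5 of 8 fish of 73 dph were above all others. CEL (Nfu_g_1_018188, annotated as 1 of several copies), a bile salt-dependent lipase, had medians of 1.78, 3.25 and 2.22 RPM. GK2 (Nfu_g_1_019255), a glycerol kinase, was at 16.9 to 25.4 RPM, 23.1 to 34.8 and 11.8 to 20.7, so that its fish of 73 dph were all above those of 108 dph.

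The transcriptional regulator EGR1 (Nfu_g_1_004681) was at 148 to 433 RPM at 39 dph with a median of 251. At 73 dph it was at 269 to 414 RPM with a median of 320, and at 108 dph at 145 to 314 RPM with a median of 191. The fish of 73 dph lay within the range of those of 39 dph, whose highest fish was the highest of all. HEY1 (Nfu_g_1_014453, annotated as 1 of 2 copies), a repressor induced by Notch signalling, had medians of 21.5, 31.8 and 25.2 RPM, with its highest fish, at 39.0 RPM, at 39 dph. CIITA (Nfu_g_1_019827), the master regulator of major histocompatibility complex class II genes, had medians of 1.79, 2.84 and 2.12 RPM, with its highest fish, at 7.78 RPM, at 108 dph. TRIM29 (Nfu_g_1_007666), of the tripartite motif family, had medians of 1.55, 3.43 and 2.24 RPM, and IFI27L1 (Nfu_g_1_007454), of an interferon-inducible family, medians of 51.2, 74.1 and 49.7 RPM with a spread from 24.3 to 129 RPM within 73 dph.

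Of the remaining named genes, CEP97 (Nfu_g_1_005938), a centriole protein that restrains the formation of cilia, was at 46.0 to 63.6 RPM at 39 dph, 59.0 to 91.1 at 73 dph and 53.4 to 82.3 at 108 dph. PARK2 (Nfu_g_1_017423), the ubiquitin ligase parkin of mitochondrial quality control, had medians of 27.2, 39.3 and 29.7 RPM, and 5 of 8 fish of 73 dph were above all others. ETAA1 (Nfu_g_1_015946), an activator of the checkpoint kinase ATR at stalled replication forks, had medians of 19.8, 28.1 and 20.4 RPM. SRP9 (Nfu_g_1_005516), a subunit of the signal recognition particle, had medians of 18.2, 24.4 and 17.0 RPM. NET1 (Nfu_g_1_020656, annotated as 1 of 2 copies), a guanine nucleotide exchange factor for RhoA, had medians of 5.75, 7.49 and 3.97 RPM. C19orf12 (Nfu_g_1_008573, 1 of 4 annotated copies), whose human gene is mutated in a form of neurodegeneration with brain iron, had medians of 4.13, 6.94 and 5.25 RPM. Reads can be split between such copies, so the values of CEL, NET1, CDH11, SLC7A10, HEY1 and C19orf12 are less certain.

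**Figure D4:**
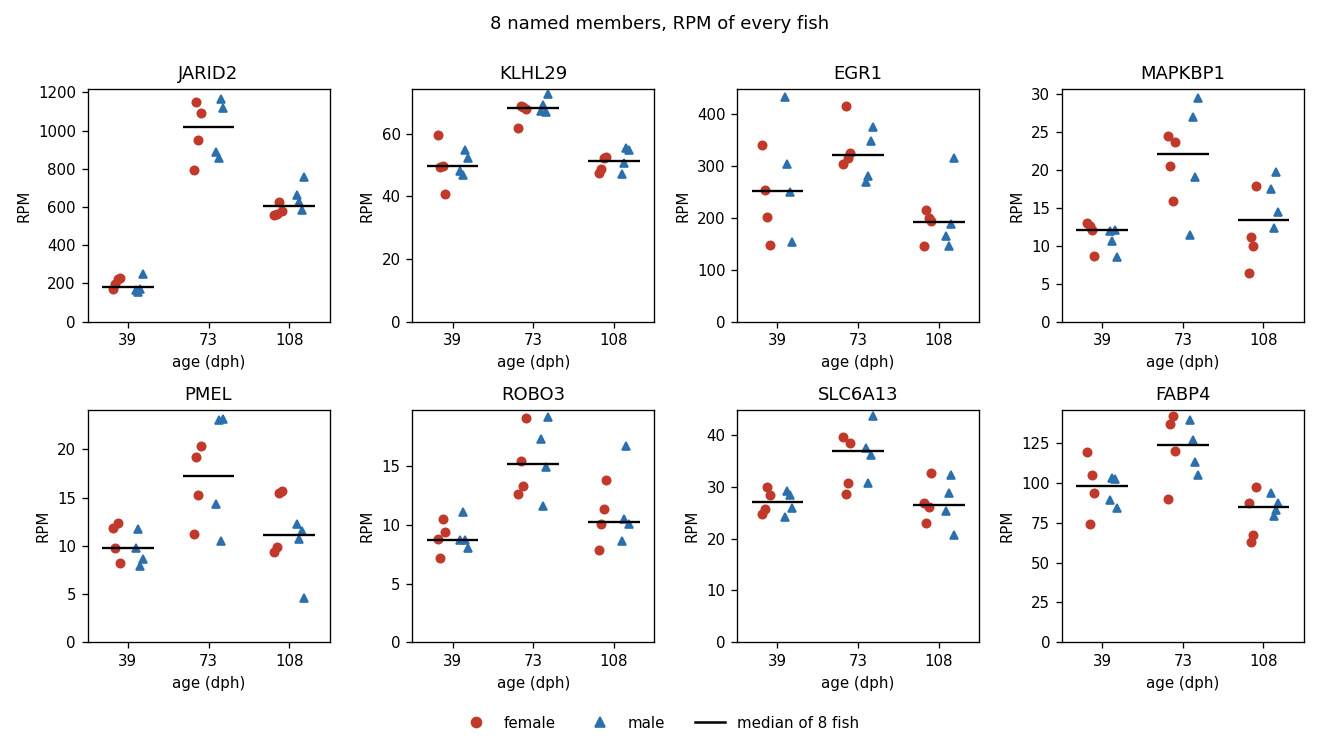
RPM (vertical axes, starting at 0) of JARID2, KLHL29, EGR1, MAPKBP1, PMEL, ROBO3, SLC6A13 and FABP4 in each fish, by age in dph (horizontal axes). Circles are females, triangles are males and lines are medians of 8 fish. The 3 ages are apart in JARID2, and in KLHL29 the fish of 73 dph at 62.0 RPM or more are above all others, while in the other 6 genes some fish of 39 or 108 dph reach the level of 73 dph.

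At the threshold, the last genes chosen were Nfu_g_1_012139, Nfu_g_1_018663 and Nfu_g_1_020347, each with a smaller gap of 0.32. The next genes, CDK18 (Nfu_g_1_012170), ARMC4 (Nfu_g_1_009770) and Nfu_g_1_000779, also had a smaller gap of 0.32. When the choice was repeated with each fish left out in turn, 74 to 92 of the 100 genes were chosen again, and the lowest number came without 73 dph male replicate 2. In all 24 repeats 35 of the genes were chosen, while the 3 genes at the threshold were chosen in 9, 8 and 9 repeats.

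The sexes were compared over all ages, since the rule had used each sex only for the order of the ages. None of the 100 genes differed between females and males at an FDR under 0.05 in edgeR, where 0.0517% of the 19358 tested genes did, and DESeq2 gave 0 of the 98 genes for which it returned an adjusted p. At an unadjusted p under 0.05, edgeR gave 7 of the 100 genes, against 7.46% of all tested genes, and 4 of the 7 were higher in females. The lowest FDR was that of CEL, with 2.87 ± 1.05 RPM in females and 2.05 ± 0.649 RPM in males (SD, n = 12), a log2 difference of 0.47 ± 0.14 (SE, edgeR unadjusted p = 0.00274, FDR = 0.42). The females ranged from 1.54 to 4.75 RPM and the males from 1.02 to 3.60 RPM, so that the sexes overlapped. ADH6 had the largest estimate, 1.06 ± 0.47, at an edgeR FDR of 0.65. Without 108 dph female replicate 4 this estimate was 0.25 (edgeR FDR = 0.88), and the other 11 females were at 5.56 ± 2.80 RPM (SD) against 4.32 ± 1.86 RPM in the 12 males. The size of the difference had a median of 0.11 log2 over the 100 genes and 0.07 over all tested genes. The 100 genes also varied more among fish of 1 age than most, and its part in these sizes was not tested.

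Next it was asked whether fish of 1 group that were high in a gene were also high in the others. For each gene the deviation of each fish from the mean of its age and sex was taken, which removes the difference between ages that chose the genes. The deviations were not scaled by gene, so genes that vary widely among fish weigh more in a mean over genes. The correlation of each gene with the mean of the other 99 had a median of 0.14 over 24 fish, from -0.57 in Nfu_g_1_016232 to 0.65 in Nfu_g_1_018663, and it was below 0 in 32 genes. With 1 fish left out this median was 0.07 to 0.18, the lowest without 39 dph male replicate 1. For the other 16854 genes, correlated with the mean of the 100, the median was 0.01. It exceeded 0.5 in 6 of the 100 genes, Nfu_g_1_018663, Nfu_g_1_015102, Nfu_g_1_000066, Nfu_g_1_005150, Nfu_g_1_015515 and Nfu_g_1_012139, and in 3.0% of the others. The fish share library and depth in every gene, and the correlations are a description. Over the 4950 pairs of the 100 genes the correlation had a median of 0.04 and ranged from -0.82 to 0.95.

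A few groups of genes moved together within age and sex. Nfu_g_1_018327, Nfu_g_1_021632, Nfu_g_1_020889, Nfu_g_1_010331, Nfu_g_1_008559 and Nfu_g_1_009173 had pairwise correlations of 0.58 to 0.91, with 73 dph male replicate 4 farthest above its group mean, and of 0.46 to 0.86 without that fish. None of these genes had a name. MAPKBP1, GNG8, PMEL, Nfu_g_1_005150, Nfu_g_1_015102 and Nfu_g_1_018663 had correlations of 0.45 to 0.77, with 108 dph female replicate 4 the highest, and of 0.31 to 0.75 without it. ADH6, Nfu_g_1_012130, Nfu_g_1_012139 and Nfu_g_1_015515 had correlations of 0.39 to 0.95, the highest between ADH6 and Nfu_g_1_012130, whose identifiers are 2 apart. The same female of 108 dph was at 67.9 RPM in ADH6 and 38.4 RPM in Nfu_g_1_012130, where the medians of its age were 3.68 and 2.35. Without this fish the correlations were 0.07 to 0.80, the highest again between ADH6 and Nfu_g_1_012130. KLHL29 and SLC25A40 correlated at 0.77. These groups were picked after their values were seen. S100A10 and ABCB4, whose identifiers are 5 apart, did not deviate together (-0.15), and neither did JARID2 and Nfu_g_1_004096 (0.03).

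The course of related genes was read from 16 lists of pathways and 13 of cell type markers, leaving out the 100 genes. The genes with a name come largely from the study's lists of changed genes, and over the 7356 tested genes with a name edgeR called 157 higher at 73 dph than the mean of 39 and 108 dph, 2.13%, and 108 lower, 1.47%. Over the 16 pathway lists 7 of 344 entries were called higher and 6 lower. At an unadjusted edgeR p under 0.05 these numbers were 40 and 45, and by DESeq2 16 and 13. The share over all tested genes is not given for the unadjusted p or for DESeq2. Counts of list genes at these settings are therefore a description, and no trend is read from them. The contrast also calls genes that only stepped between 2 ages, so the 3 medians are given for those named.

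EGR1 was the only gene among the 100 that was matched to the list of immediate early genes. Of the 27 symbols of that list 19 were matched, and only 32 of the 100 genes had a name. Of the other 21 tested genes of that list, which neurons and other cells induce after stimulation, edgeR called 0 in either direction, DESeq2 called 1 lower, and at an unadjusted p under 0.05 edgeR gave 1 higher and 5 lower. EGR4 (Nfu_g_1_012693) came closest to EGR1, with medians of 103, 114 and 71.9 RPM and a log2 difference of 0.52 ± 0.17 (SE, edgeR FDR = 0.12). For EGR1 itself this difference was 0.54 ± 0.16, and edgeR did not call it either, in a contrast that the choice had used. NPAS4 (Nfu_g_1_004262), a factor induced by neuronal calcium, had medians of 324, 184 and 65.0 RPM, and FOSB (Nfu_g_1_000355), a partner of JUN, had medians of 72.5, 16.7 and 12.3 RPM. FOS (Nfu_g_1_018967) had medians of 108, 100.2 and 63.3 RPM. In these 3 genes 39 dph was the highest age.

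Of the circadian clock list, with 27 genes, 1 was called higher, ARNTL2 (Nfu_g_1_012032), a partner of CLOCK, with a log2 difference of 1.15 ± 0.22 (SE, edgeR FDR = 0.0070). Its medians were 6.21, 43.7 and 67.6 RPM, so that 108 dph was its highest age. Of 11 genes of cholesterol synthesis outside the 100, edgeR and DESeq2 called 0, and 1 was higher at an unadjusted edgeR p under 0.05. COL15A1 was the only gene among the 100 of the 19 tested genes matched to the list of extracellular matrix and collagens. Of the 18 others edgeR and DESeq2 called 0, with 1 higher and 4 lower at an unadjusted edgeR p under 0.05. CIITA was the only gene among the 100 of the 11 tested genes matched to the list of interferon response and antigen presentation. There edgeR called 0 of the 10 others, DESeq2 called 1 lower, and 1 was higher and 3 lower at an unadjusted edgeR p under 0.05.

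Of 37 genes of chromatin modifiers, a list to which JARID2 had not been assigned, 1 was called higher and 1 lower. EZH1 (Nfu_g_1_007672), a catalytic subunit of Polycomb repressive complex 2, had medians of 77.9, 106 and 112 RPM and a log2 difference of 0.18 ± 0.04 (SE, edgeR FDR = 0.035). TET3 (Nfu_g_1_009247), an enzyme that oxidises methylated cytosine, had medians of 132, 96.0 and 91.8 RPM and a difference of -0.23 ± 0.06 (SE, edgeR FDR = 0.039). In both the level at 108 dph was near that at 73 dph, unlike that of JARID2.

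Genes of splicing and RNA binding had the most calls, 1 higher and 3 lower of 21. SRSF6 (Nfu_g_1_010515), an SR protein, had medians of 90.8, 81.1 and 107 RPM, the lowest at 73 dph, with a difference of -0.29 ± 0.05 (SE, edgeR FDR = 0.0012). HNRNPD (Nfu_g_1_006635), which binds AU-rich elements, had medians of 177, 107 and 111 RPM (edgeR FDR = 0.00016), and RBM25 (Nfu_g_1_019081) had medians of 254, 206 and 207 RPM (edgeR FDR = 0.039). RBM5 (Nfu_g_1_021066), a splicing regulator, was called higher, with medians of 838, 1124 and 1090 RPM (edgeR FDR = 0.0068).

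Of 43 synaptic genes 2 were called higher, NLGN3 (Nfu_g_1_014671), a postsynaptic adhesion protein, with medians of 68.3, 80.9 and 61.7 RPM (edgeR FDR = 0.034), and SNAP25 (Nfu_g_1_017443), a protein of vesicle fusion, with medians of 1763, 2143 and 2127 RPM (edgeR FDR = 0.037). Of 26 genes of oxidative phosphorylation 2 were called higher, ATP5A1 (Nfu_g_1_009250), a subunit of ATP synthase, with medians of 723, 770 and 625 RPM (edgeR FDR = 0.030), and SDHA (Nfu_g_1_016728), a subunit of complex II, with medians of 467, 568 and 545 RPM (edgeR FDR = 0.034). The median log2 difference of that list was 0.06, against -0.0025 over all tested genes. Over the 16 pathway lists these medians ran from -0.23 in interferon response and antigen presentation to 0.06 in the circadian clock. The list medians were not tested. Of 23 genes of neural progenitors and new neurons 1 was called lower, NES (Nfu_g_1_011030), the intermediate filament nestin, with medians of 12.4, 5.59 and 6.004 RPM (edgeR FDR = 0.019). Of 6 neuropeptide genes 1 was called lower, CCK (Nfu_g_1_001713), cholecystokinin, with medians of 16.4, 10.5 and 12.9 RPM (edgeR FDR = 0.028).

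No other pathway list had a call in edgeR. These were 20 genes of heat shock proteins and co-chaperones, 17 of the unfolded protein response, 25 of cell cycle and DNA replication, 9 of myelin and oligodendrocytes and 30 ribosomal protein genes. The 9 pathway lists with no call include those of EGR1, CIITA, COL15A1 and cholesterol synthesis. Of their 161 entries, 8 were higher and 26 lower at an unadjusted edgeR p under 0.05, and DESeq2 called 2 higher and 3 lower. In the lists with a call, the unadjusted edgeR counts were 7 higher and 0 lower in oxidative phosphorylation and 7 and 1 in synaptic genes. They were 7 and 3 in the circadian clock and 5 and 8 in splicing and RNA binding. They were 4 and 4 in chromatin modifiers, 2 and 2 in neural progenitors and new neurons, and 0 and 1 in neuropeptides. Without the share over all tested genes at these settings, these counts cannot be read as a lower or a higher level at 73 dph. Among the 11 marker lists with tested genes, SNAP25 of the neuron list was the 1 call, 6 of 39 entries were higher and 4 lower at an unadjusted edgeR p under 0.05, and DESeq2 called 2 higher and 1 lower. The summed RPM of neuron markers had medians of 3669, 3964 and 3880 at the 3 ages, the highest at 73 dph. The fish ranged from 3484 to 3851 RPM at 39 dph, from 3847 to 4019 at 73 dph and from 3268 to 4269 at 108 dph. The ranges of 39 and 73 dph overlapped only at their ends, and that of 73 dph lay within that of 108 dph. SNAP25, whose medians are given above, was a large part of this sum, so the sum does not show a course shared by the list. The median RPM was highest at 73 dph in 4 of the 11 neuron genes. Their log2 difference of 73 dph from the mean of the other ages had a median of 0.08. The summed RPM of astroglia and radial glia had medians of 6351, 6020 and 4981. Gene by gene, the log2 difference of 73 dph from the mean of the other ages had a median of 0.24 over these 5 genes. The median RPM was highest at 73 dph in 2 of the 5, and edgeR called 0. The summed RPM of red blood cell markers was 100.1 to 132 at 39 dph, 152 to 229 at 73 dph and 192 to 239 at 108 dph. That of endothelium and pericytes had medians of 146, 183 and 176 RPM, and that of ependyma and choroid plexus medians of 8.92, 10.7 and 16.8 RPM. Markers of the pituitary, a gland that a dissection can leave on the brain, ranged from 1.93 to 3761 RPM at 39 dph, from 2.48 to 4342 at 73 dph and from 2.28 to 4382 at 108 dph. The part of these cell types in the levels of the 100 genes was not tested. The gene that marks the pineal organ and retina was at medians of 28.8, 22.1 and 18.6 RPM, and that of the gonad at 9.71, 9.97 and 8.50 RPM.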

How the data were processed

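The brains of 24 fish were sequenced by the authors as single-end reads of stranded poly(A) libraries. They used bcl2fastq 1.8.4 for base calls, TopHat2 2.1.0 for mapping to the NFINgb genome (hardmasked, at most 1 place per read) and featureCounts 1.5.0 for counting by strand, with versions as in the submitters' processing notes. Genes with near-identical copies can therefore have lost or gained reads. The deposited read counts are raw counts per gene. The deposited RPM values are those counts scaled to the reads assigned to genes in each library. The deposited RPKM values also account for gene length and served here only to give lengths.

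Groups were taken from the age and sex labels. The labels give 24 samples and the study's text speaks of fewer. All 24 were used. Each library is another fish, and replicate numbers only name the fish. Genes were chosen from medians of log2(RPM + 0.5), a scale that understates differences of low genes. The test of counts was that of edgeR 4.0.16 (R 4.3.3, TMM, filterByExpr with a minimum count of 10, quasi-likelihood F test, model of sex and age, 19358 genes). FDR is the Benjamini-Hochberg adjusted p over all tested genes, and the SE is the size of a log2 difference divided by the square root of F. The test was tried on simulated counts with known changes. The files give identifiers. Names came from the study's gene lists, which hold genes called in these and related samples, so called genes are over-represented among names. Sequences of these genes were not analysed here.

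The 100 genes and the lists were chosen with earlier results of these data known. Named were the 20 genes with the largest gaps, all genes with a name except 1 that is not reported here, those at the threshold, at the extremes of level, sex difference and correlation, and the list genes called by edgeR. List genes outside this rule (EGR4, NPAS4, FOSB, FOS) and the genes of the correlated groups were chosen after their values were seen. Alternatives were pseudocounts of 0.1 and 2, TMM and DESeq2 1.42.0 scaling, means in place of medians, no filter or a minimum of 5 RPM, no condition per sex, DESeq2, an FDR of 0.01, removal of the 2 shallowest libraries and of each fish in turn. Counts of genes without overlap, and of the 100 genes called, under other settings were added after seeing the data, as were the sex differences of ADH6 and CEL and the correlations of groups of genes with fish left out.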

Additional observations from a re-analysis of the deposited data

Results flagged for a closer look

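In the 20 genes with the largest gaps, in the next 10 with a name, in the mean z-score and in the total count, a fish was sought that lay far from the other 3 of its age and sex (gap to the nearest fish over the whole range above Dixon's critical value). Of 192 groups 20 held such a fish. A rate of 1 in 20 would give 9.6, but it holds for independent normal values. Here the same fish recur in every item, and the genes were picked by a rule that favours wide spread. Of these 7 lay in S100A10, Nfu_g_1_016232, Nfu_g_1_022505 and Nfu_g_1_022520, which had a wide empty range among fish. The 39 dph female replicate 2 was at 18.0 RPM in Nfu_g_1_016232, 58.9 RPM in S100A10 (Nfu_g_1_001324), 2.63 RPM in Nfu_g_1_020000 and 132 RPM in Nfu_g_1_022520, where the nearest female was at 2.41, 8.58, 1.09 and 1.31 RPM. The 108 dph male replicate 4 was at 27.2 RPM in Nfu_g_1_016232 and 6.04 RPM in Nfu_g_1_020000, against 1.45 and 1.34 RPM. The 108 dph male replicate 3 was at 78.9 RPM in S100A10 against 16.7, and at 2.69 RPM in Nfu_g_1_019351 against 1.20. The 108 dph female replicate 4 was at 67.9 RPM in ADH6 against 3.81 and at 12.9 RPM in Nfu_g_1_014187 against 2.84.

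In JARID2 the 39 dph male replicate 4, a shallow library, was at 249 RPM and the nearest male at 170.1 RPM. Nfu_g_1_022505 was at 48.9 RPM in 39 dph male replicate 2 against 27.1, and at 2.91 RPM in 73 dph female replicate 1 against 44.6. Nfu_g_1_009150 was at 12.6 RPM in 39 dph male replicate 4 against 8.17, and at 12.7 RPM in 108 dph male replicate 1 against 6.63. Nfu_g_1_019430 was at 3.29 RPM in 39 dph male replicate 2 against 4.65, Nfu_g_1_004636 at 38.3 RPM in 39 dph male replicate 1 against 21.4, and ABCC12 at 39.2 RPM in 108 dph male replicate 2 against 22.2. The total counts of 39 dph female replicate 4, 4595506, and of 39 dph male replicate 4, 10019750, were the lowest, with the nearest fish of their groups at 17582640 and 17631841.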

How the results depend on the processing

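The choice of the 100 genes kept 92 with a pseudocount of 0.1 and 81 with 2, 94 under TMM, 93 under DESeq2 size factors, 71 without the filter on low values, 78 without the condition per sex and 85 without the 2 shallowest libraries. It kept 62 with means of log2 values and 52 with a minimum of 5 RPM. Leaving out each fish in turn kept 74 to 92. The edgeR count of genes higher at 73 dph, 203, was 55 at an FDR of 0.01, 432 by DESeq2 and 130 to 268 with 1 fish left out, the lowest without 73 dph male replicate 4. The count of genes lower, 154, was 394 by DESeq2, 33 at an FDR of 0.01 and 104 to 217 with 1 fish left out. Of the 100 genes, DESeq2 called 36 higher where edgeR called 20, in a contrast that the choice had used, so these counts are no added support. With edgeR the number was 16 without the 2 shallowest libraries and 18 without 73 dph male replicate 4. The number of the 100 genes without overlap, 2, was the same under TMM and without the shallow libraries. No gene of the 100 differed between the sexes in any alternative, 1 fish left out included.

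The smaller gap was recomputed for 30 of the 100 genes, the 20 largest and the next 10 with a name, and 3 turned their sign. For the other 70 it was not recomputed gene by gene. That of Nfu_g_1_022505 was -0.37 with means of log2 values. That of S100A10 was -0.31 to 2.37 with 1 fish left out, below 0 without any 1 of 73 dph female replicates 1 and 2 and male replicates 1 and 3, its high fish of that age. That of Nfu_g_1_022520 was -1.18 to 2.86. It was below 0 without any 1 of 108 dph female replicates 2 and 4 and male replicates 2 and 3. These fish lay below the empty range of that gene. No paired analysis was possible because the replicate numbers only name fish that were killed at each age. The 30 genes under 5 RPM at 73 dph rest on few reads, with median counts of 18.5 to 64.5 per library.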
